A study of Mus musculus with 6 samples.

Results

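Atf4, Ddit3, Trib3, Chac1, Asns, Psat1, Phgdh, Cth, Sesn2 and Mthfd2 are 10 genes of the integrated stress response and of serine synthesis. They were taken by symbol from GENCODE M21 out of 55487 genes in the count table. The symbols matched 11 gene rows, of which 10 held counts, 1 for each gene, and all 10 genes passed the filter on low counts. RNA-seq counts were given for 6 samples of RAW264.7, an established macrophage-like line from mouse. All 6 carry the treatment label RANKL/M-CSF, which names 2 cytokines of osteoclast formation, although the design text calls the control line untreated. The genotype of 3 samples is given as wt (control) and that of the other 3 as RhoA knockout, made with a Cas9 system titled SMART-Cas9 against RhoA, a small GTPase of the actin cytoskeleton. The labels name no library with Cas9 alone and do not say whether the edited cells were 1 clone, and the study's aim was macrophage RhoA in arthritic bone loss.

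In the integrated stress response, kinases that sense amino acid shortage, misfolded protein in the endoplasmic reticulum, heme shortage or double-stranded RNA phosphorylate the initiation factor eIF2. General translation then drops while that of the Atf4 mRNA rises, so much of the control of ATF4 lies outside its mRNA level. ATF4, with partners such as C/EBP proteins and CHOP, raises genes for amino acid synthesis, uptake and tRNA charging, and stress genes such as Ddit3, Trib3 and Chac1. The serine route runs from a glycolytic intermediate through Phgdh, Psat1 and Psph to serine, which feeds glycine and folate-borne carbon units.

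Of the 10 genes, 3 were higher in the libraries labelled RhoA knockout (Chac1, Trib3 and Phgdh), 5 were lower (Cth, Ddit3, Asns, Atf4 and Psat1) and 2 were not called (Sesn2 and Mthfd2). A call is an edgeR quasi-likelihood adjusted p under 0.05 over 12930 genes. Of all genes tested, 43.2% were called, 21.0% higher and 22.3% lower, so calls were common in this comparison. The median log2 fold change of the 10 genes was -0.28, against -0.03 over all genes tested. Within the set the log2 fold change ran from -3.26 for Cth to 2.56 for Chac1. In 8 of the 10 genes no library of 1 group lay within the range of the other, as in 55.8% of all genes tested, and the same 8 were called, as 42.5% of all genes were both. Without replicate 3 of both groups, 3 of the genes were higher and 4 lower, and with library totals in place of TMM scaling 3 were higher and 3 lower.

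Some facts of the whole series bear on these values. Library totals ran from 60198645 to 81830819 counts, so 3 counts corresponded to 0.0336 to 0.0513 CPM (counts scaled to library size with edgeR's TMM factors). The labels do not say whether replicates came from separate cultures, so the spread behind each p-value may be technical only. Rhoa itself was higher in the libraries labelled RhoA knockout, at 29.9 to 34.2 CPM against 21.4 to 25.8 CPM in the controls (log2 fold change 0.41 ± 0.12, edgeR adjusted p = 0.0136). Gene-level RNA counts do not show whether the gene was edited or its protein lost, so this value does not decide whether the label holds. Each direction given here is one between labels. Long genes lay lower in those libraries. Over 4 length classes of like size the median log2 fold change was 0.31 in the shortest and -0.44 in the longest, and the 10 genes have 1637 to 4254 bp of exon. All 8 macrophage markers had counts, with 3 higher and 4 lower and a summed level of 18160 to 20020 CPM in the controls and 81080 to 113700 CPM in the others. Lyz2 alone held 15598 to 17524 CPM and 76862 to 108780 CPM of these sums, while Cd68 was higher and Itgam and Cd14 were lower (log2 fold changes 1.30, -2.01 and -0.58). Of the osteoclast markers 7 of 9 had counts, with Calcr and Oscar at 0 and a sum of 23.9 to 27.7 CPM in the controls and 27.2 to 27.3 CPM in the others. That sum holds opposite changes, with 2 of 6 tested markers higher and 3 lower, such as Ctsk (log2 fold change 1.10), Mmp9 (-2.06) and Acp5 (-1.43). The part of these differences in the results was not tested. In bulk RNA, fewer cells of a type and less RNA per cell cannot be told apart.

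ATF4 and its C/EBP partners are known to bind a composite element with the core TGATGNAA. Promoter windows of 250 bases before to 50 bases after each RefSeq gene start (GRCm38.p6) were searched for these letters on both strands. The open form TGATGNAA was found in 3.97% and the fully spelled TGATGCAA in 0.895% of 32851 windows. Windows were given for 9 of the 10 genes, not for Cth. The open form was present for Chac1, Asns and Trib3, and the spelled form for Chac1. Shown here are the 250 bases before the start of Chac1, the gene of the set that rose most, and of Asns, which was lower. Beside them stand Slc7a11 and Atf3, which were lower and hold the spelled form too. Each is read 5′ to 3′ on its gene's own strand, with the motif on either strand in capitals. They lie at chr2:119350992-119351241 (plus strand) for Chac1, chr6:7693210-7693459 (minus) for Asns, chr3:50443614-50443863 (minus) for Slc7a11 and chr1:191183334-191183583 (minus) for Atf3.
Chac1: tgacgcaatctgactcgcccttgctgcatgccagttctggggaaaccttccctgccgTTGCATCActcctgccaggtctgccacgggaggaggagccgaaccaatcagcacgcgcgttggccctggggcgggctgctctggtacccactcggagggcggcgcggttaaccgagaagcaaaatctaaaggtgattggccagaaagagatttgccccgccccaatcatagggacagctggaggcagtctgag
Asns: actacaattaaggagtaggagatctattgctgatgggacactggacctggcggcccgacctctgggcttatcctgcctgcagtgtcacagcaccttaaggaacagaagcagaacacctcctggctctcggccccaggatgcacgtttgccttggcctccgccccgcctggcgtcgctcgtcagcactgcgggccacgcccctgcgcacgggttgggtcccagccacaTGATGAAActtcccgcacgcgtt
Slc7a11: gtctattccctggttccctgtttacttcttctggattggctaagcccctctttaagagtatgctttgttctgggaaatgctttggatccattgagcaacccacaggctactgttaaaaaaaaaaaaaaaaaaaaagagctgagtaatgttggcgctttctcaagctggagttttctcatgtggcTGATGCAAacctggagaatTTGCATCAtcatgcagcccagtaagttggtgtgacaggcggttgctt
Atf3: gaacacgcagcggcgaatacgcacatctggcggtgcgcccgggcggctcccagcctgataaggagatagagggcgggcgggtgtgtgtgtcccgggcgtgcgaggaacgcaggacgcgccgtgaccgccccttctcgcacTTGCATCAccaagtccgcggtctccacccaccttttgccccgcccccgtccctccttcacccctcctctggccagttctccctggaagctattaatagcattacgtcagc

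In Chac1 the match began 193 bases before the start, in Asns 23 and in Atf3 110, while Slc7a11 had 1 at 66 and 1 at 47. The match in Trib3 lay 14 bases after the start and is not printed. A match describes letters and not a bound site, and for the other 6 genes with windows the letters were not found in these bases.

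**Figure D1:**
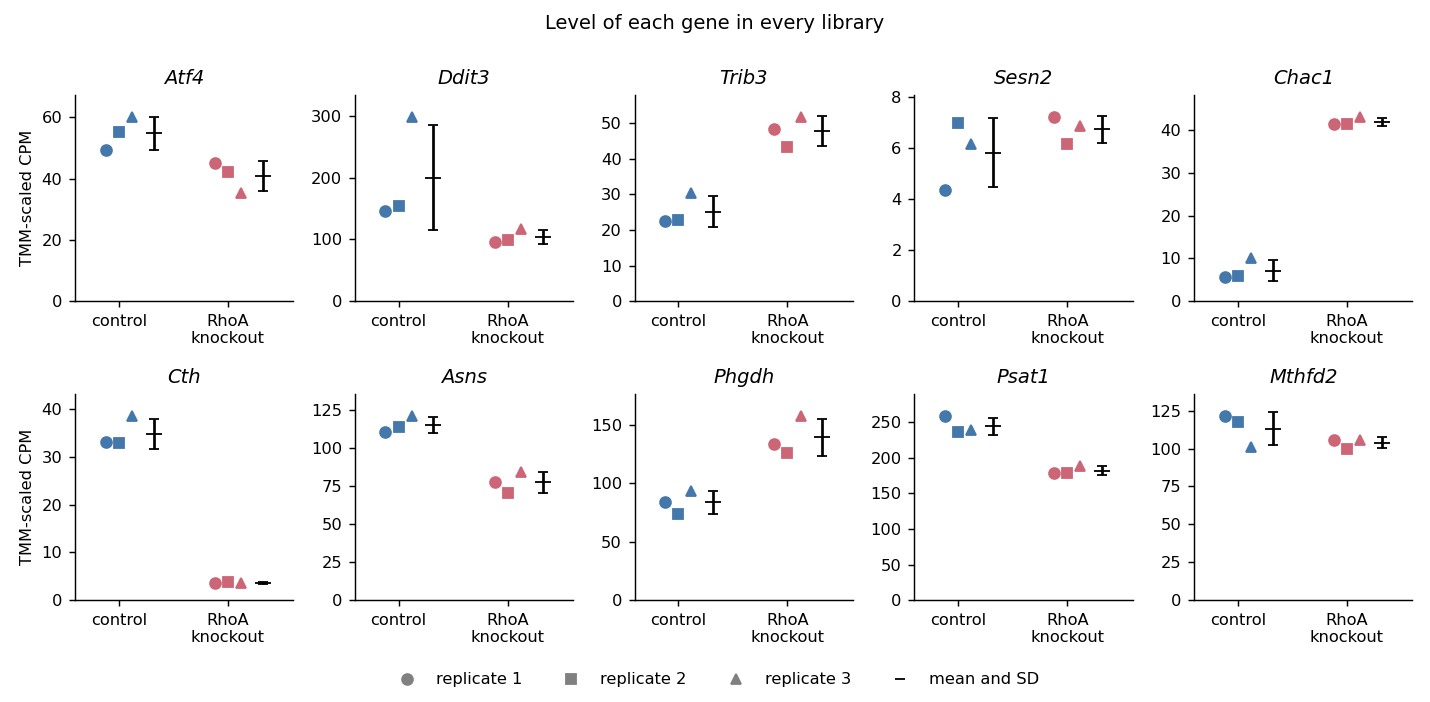
TMM-scaled CPM of each gene (linear axis from 0) in the 3 control libraries and the 3 libraries labelled RhoA knockout, with a symbol for each replicate and the mean ± SD beside the points. Chac1, Trib3 and Phgdh lie higher in every library labelled RhoA knockout, Cth, Ddit3, Asns, Atf4 and Psat1 lie lower, and Sesn2 and Mthfd2 overlap; control replicate 3 lies far above the other controls for Ddit3.

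The regulators were lower. Atf4 (ENSMUSG00000042406.8, chromosome 15, 80255184 to 80257541, plus strand), the transcription factor of the response, held 49.3, 55.1 and 60.03 CPM in control replicates 1 to 3 and 44.9, 42.2 and 35.4 CPM in replicates 1 to 3 of the libraries labelled RhoA knockout. The groups did not overlap, though the highest library labelled RhoA knockout lay close under the lowest control. The log2 fold change was -0.42 ± 0.12 (SE; edgeR adjusted p = 0.0146), a ratio of the means of 0.745. With library totals in place of TMM the value was -0.23 (adjusted p = 0.275), and with the length correction it was -0.68. Without knockout replicate 3 the adjusted p was 0.0538, and without replicate 3 of both groups the value was -0.26 (adjusted p = 0.0648).

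Ddit3 (ENSMUSG00000025408.15, chromosome 10, 127290774 to 127296288, plus strand) encodes CHOP, a C/EBP family factor of prolonged stress. Its level was 146.6, 154.8 and 297.8 CPM in the controls and 96.2, 99.6 and 117.1 CPM in the libraries labelled RhoA knockout. Control replicate 3 stood far above the other controls, and every control lay above every other library. The log2 fold change was -0.94 ± 0.27 (SE; edgeR adjusted p = 0.0242), and it was -0.53 without control replicate 3 (adjusted p = 0.00307). The adjusted p rose to 0.0582, 0.0568 and 0.0684 without knockout replicate 1, 2 or 3, to 0.0624 with limma voom, and to 0.102 with every counted gene tested. Ddit3 shares 68 exon bases with Mars on the opposite strand, a gene with 2274 to 5434 counts per library against 7895 to 17551 for Ddit3, and the strand setting of the counting is not given in the sources used here.

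Control replicate 3 was the highest control for many stress genes, by unlike margins. It was so for 7 of the 10 genes, Ddit3 among them, against 35.2% of all genes tested. For Asns the excess was small, with 110.8, 114.2 and 121.0 CPM in control replicates 1 to 3. It was also the highest control for 13 of 16 tested genes of the ATF6 and XBP1 branches of the unfolded protein response. Among the libraries labelled RhoA knockout, replicate 3 was the highest for 6 of the 10 genes and 8 of those 16, against 37.5% of all genes tested. Hspa5, the main endoplasmic reticulum chaperone, named here after its values were seen, held 2632, 2760 and 7277 CPM in control replicates 1 to 3. Its level in the others was 2141, 2016 and 2413 CPM (log2 fold change -0.95 ± 0.42, adjusted p = 0.120). The part of the state of control replicate 3 in the results was not tested beyond leaving it out.

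Of the genes that restrain growth or the response itself, Trib3 rose and Sesn2 was not called. Trib3 (ENSMUSG00000032715.9, chromosome 2, 152337422 to 152344032, minus strand), a pseudokinase induced by ATF4 and CHOP that restrains them and AKT, was at 22.5, 22.6 and 30.3 CPM in the controls and at 48.2, 43.2 and 51.6 CPM in the libraries labelled RhoA knockout. All of the latter were above all controls, with a log2 fold change of 0.92 ± 0.14 (SE; edgeR adjusted p = 0.000193), which was 0.64 with the length correction. Sesn2 (ENSMUSG00000028893.8, chromosome 4, 132492032 to 132510501, minus strand), sestrin 2, a leucine-binding inhibitor of mTORC1 signalling, was at 4.35, 6.99 and 6.14 CPM in the controls and 7.21, 6.15 and 6.85 CPM in the others. These ranges overlapped, and the log2 fold change was 0.21 ± 0.21 (adjusted p = 0.445).

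Chac1 (ENSMUSG00000027313.3, chromosome 2, 119351229 to 119354381, plus strand), the stress-induced enzyme that breaks down glutathione, rose most of the set. It was at 5.56, 5.83 and 10.01 CPM in the controls, from 341 to 590 counts, and at 41.4, 41.3 and 43.0 CPM in the libraries labelled RhoA knockout, from 3268 to 3694 counts. The latter differed little among themselves, and the groups lay far apart. The mean was 5.88 times that of the controls, with a log2 fold change of 2.56 ± 0.20 (SE; edgeR adjusted p = 1.33e-06), which was 2.88 without control replicate 3 and 2.21 with the length correction. By log2 fold change it ranked 321 from the highest of 12930 genes. Its match of the spelled motif is the one shown above.

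Cth (ENSMUSG00000028179.12, chromosome 3, 157894248 to 157925077, minus strand) fell most. It encodes cystathionine gamma-lyase, which makes cysteine, a building block of glutathione, from cystathionine. Its level was 33.0, 32.8 and 38.4 CPM in the controls and 3.52, 3.78 and 3.56 CPM in the libraries labelled RhoA knockout. The control mean was 9.60 times that of the others, and the groups lay far apart. The log2 fold change was -3.26 ± 0.13 (SE; edgeR adjusted p = 9.64e-09), rank 243 from the lowest. Over 18 alternative settings it stayed between -3.45 and -3.08.

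Ratios within a library do not depend on how libraries are scaled, and the pairs given here were chosen after their values were seen. Per count of Ddit3, Chac1 held 0.0336 to 0.0379 counts in the controls and 0.367 to 0.431 counts in the libraries labelled RhoA knockout. Trib3 held 0.102 to 0.153 counts per count of Ddit3 in the controls and 0.433 to 0.501 in the others. Chac1 and Trib3, downstream of CHOP and ATF4 in textbook accounts, were thus higher relative to Ddit3 in every library labelled RhoA knockout than in any control. This follows from the separate group ranges of these genes and is no further evidence. The ratio of Chac1 to Atf4 separated too, but those of Asns and of Ddit3 to Atf4 overlapped between the groups. Per count of Atf4, Asns held 2.015 to 2.25 counts in the controls and 1.68 to 2.38 in the others. Ddit3 held 2.81 to 4.96 and 2.14 to 3.31 counts per count of Atf4.

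**Figure D2:**
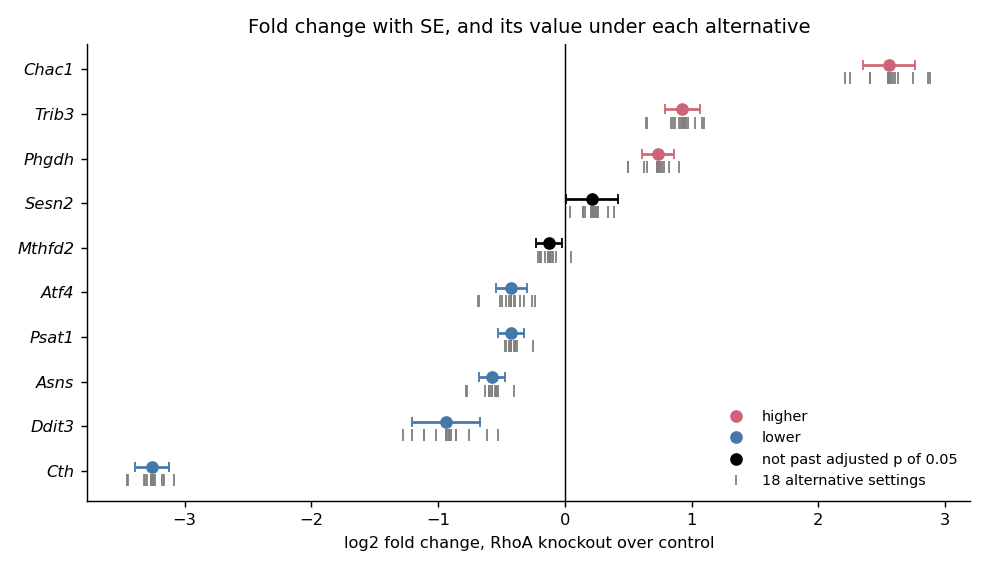
log2 fold change (libraries labelled RhoA knockout over control) of each gene with its SE, and grey ticks for its value under each of 18 alternative settings. Chac1 (2.56) and Cth (-3.26) stand at the ends, and of all ticks only 1 of Mthfd2, at 0.05 with library totals, crosses 0 to the other side of its point.

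Enzymes of amino acid synthesis did not move one way. Phgdh (ENSMUSG00000053398.11, chromosome 3, 98313170 to 98339990, minus strand), the first enzyme of serine synthesis, was at 84.2, 73.3 and 93.1 CPM in the controls and 133.8, 126.2 and 157.1 CPM in the libraries labelled RhoA knockout. The groups did not overlap, with a log2 fold change of 0.73 ± 0.12 (SE; edgeR adjusted p = 0.000447), which was 0.49 with the length correction. Phgdh is uncertain because its processed pseudogene Gm7901, 98.7% identical over 1597 bp, held 14.8 to 17.3% of its count, and reads that match both cannot be placed. Summed with 9 such copies, the level was 105.3 CPM in the controls and 175.4 CPM in the others, a ratio of 1.67, against 1.66 for Phgdh alone.

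Psat1 (ENSMUSG00000024640.9, chromosome 19, 15904678 to 15947337, minus strand), the transaminase of the next step, was at 257.9, 235.5 and 238.4 CPM in the controls and 178.1, 178.3 and 188.6 CPM in the libraries labelled RhoA knockout. Every control was higher. Its log2 fold change was -0.43 ± 0.10 (SE; edgeR adjusted p = 0.00433), or -0.25 with library totals (adjusted p = 0.0650). Neighbouring steps of 1 route therefore differed in direction. Phgdh held 0.311 to 0.390 counts per count of Psat1 in the controls and 0.708 to 0.833 in the others.

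Asns (ENSMUSG00000029752.12, chromosome 6, 7675169 to 7693254, minus strand), asparagine synthetase and a classical ATF4 target, was at 110.8, 114.2 and 121.0 CPM in the controls and 77.5, 70.8 and 84.1 CPM in the libraries labelled RhoA knockout. The groups did not overlap (log2 fold change -0.57 ± 0.10, SE; edgeR adjusted p = 0.000791). Mthfd2 (ENSMUSG00000005667.8, chromosome 6, 83305691 to 83325908, minus strand), a mitochondrial folate enzyme, was at 121.2, 117.4 and 100.9 CPM in the controls and 105.9, 99.7 and 105.8 CPM in the others. These ranges overlapped, with a log2 fold change of -0.12 ± 0.11 (adjusted p = 0.373), which was 0.05 with library totals (adjusted p = 0.808).

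Levels of different genes are compared per kilobase of exon, taken as the union of all annotated exons of a gene. This can be longer than the transcript in the cells, and the order below depends on it. In the controls Ddit3 had the highest level, at 116.6 ± 49.6 CPM per kb (SD, n = 3). It was followed by Psat1 (57.3), Asns (42.2), Phgdh (33.6), Mthfd2 (32.5), Atf4 (23.2), Cth (12.5), Trib3 (11.8), Chac1 (4.36) and Sesn2 (1.68), all means in CPM per kb. The ranges of neighbours overlapped for Phgdh and Mthfd2 and for Cth and Trib3, and for no other neighbours. In the libraries labelled RhoA knockout the order of the level per kb was Ddit3 (60.9), Phgdh (55.9), Psat1 (42.7), Mthfd2 (29.8), Asns (28.3), Chac1 (25.6), Trib3 (22.4), Atf4 (17.3), Sesn2 (1.94) and Cth (1.30). There Ddit3 and Phgdh overlapped, as did Mthfd2 with Asns and Asns with Chac1. Chac1 thus stood below Atf4 in the controls and above it in the others, and Cth went to the lowest place.

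The wider route around Phgdh, Psat1 and Mthfd2 was split as well. Of 13 tested enzymes and carriers of serine, glycine and folate metabolism outside the 10 genes, 6 were higher, 4 lower and 3 not called, with a median log2 fold change of 0.49 that was 0.07 when every counted gene was tested and 0.29 with the length correction. Over all genes tested the shares were 21.0% higher and 22.3% lower. Aldh1l2, the mitochondrial enzyme that oxidises formyl-folate, was at 16.5, 16.6 and 21.3 CPM in the controls and 5.93, 4.79 and 6.32 CPM in the libraries labelled RhoA knockout (log2 fold change -1.67 ± 0.17, SE; adjusted p = 8.36e-06). It shares 1056 of 7503 exon bases with D10Wsu102e on the opposite strand and is uncertain, and its value was -1.34 with the length correction. Sfxn1, the mitochondrial serine carrier, and Tyms, thymidylate synthase, rose, with log2 fold changes of 0.90 ± 0.11 and 1.20 ± 0.13 (adjusted p = 3.52e-05 and 1.26e-05). Tyms is uncertain because its longest transcript holds sequence found in transcripts of Reep3 and other genes.

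Further enzymes of the route were picked after their values were seen. Psph, the phosphatase that completes serine, was lower like Psat1 and unlike Phgdh (log2 fold change -0.64 ± 0.13, adjusted p = 0.00190). Shmt2 and Shmt1, the mitochondrial and cytosolic enzymes that turn serine into glycine, both rose. Shmt2 went from a mean of 61.8 ± 4.34 to 107.3 ± 3.05 CPM (SD, n = 3; edgeR adjusted p = 5.03e-05), and Shmt1 from 3.25 ± 1.09 to 7.73 ± 0.872 CPM (SD, n = 3; edgeR adjusted p = 0.00165). Mthfd1l, which acts after Mthfd2 in mitochondria, was lower (log2 fold change -0.60 ± 0.13, adjusted p = 0.00291).

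**Figure D3:**
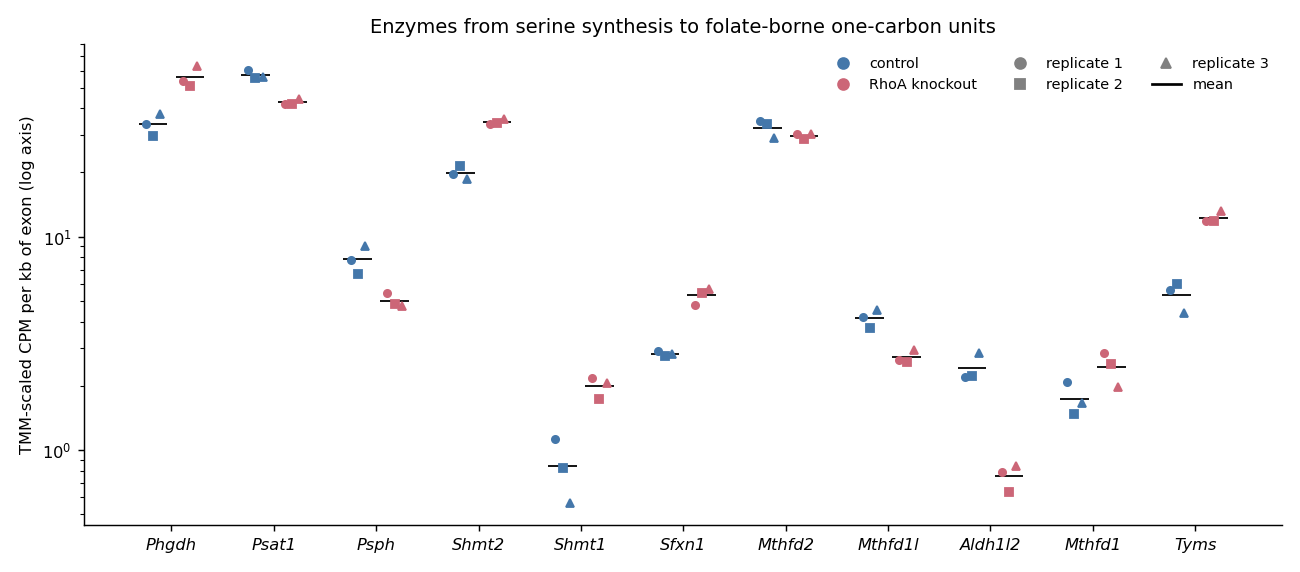
Level per kilobase of exon (TMM-scaled CPM per kb, log axis) of 11 genes from serine synthesis to folate metabolism in each library, with a symbol for each replicate and a line at the group mean. Phgdh, Shmt2, Shmt1, Sfxn1 and Tyms lie higher in the libraries labelled RhoA knockout, Psat1, Psph, Mthfd1l and Aldh1l2 lie lower, and Mthfd2 and Mthfd1 overlap between the groups.

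Around Cth, 9 genes of proline, aspartate and glutathione-linked synthesis were tested, of which 1 was higher, 4 were lower and 4 were not called (median log2 fold change -0.22, or -0.46 with the length correction and -0.04 with library totals). As given above, 21.0% of all genes tested were higher and 22.3% lower. Gpt2, a mitochondrial alanine transaminase, and Aldh18a1, the first enzyme of proline synthesis, had log2 fold changes of -1.55 ± 0.24 and -0.52 ± 0.13 (adjusted p = 0.000219 and 0.00539). Aldh18a1 was at -0.34 with library totals (adjusted p = 0.147). Gclm, the modifier subunit of the enzyme that starts glutathione synthesis, was at -3.29 ± 0.25, a size near that of Cth. It shares 296 exon bases with Gm17494 on the opposite strand, whose counts exceed those of Gclm in every library, and is uncertain. Gm17494 held 2101 to 3475 counts against 635 to 878 for Gclm in the controls. In the libraries labelled RhoA knockout these were 2135 to 5051 against 78 to 127. Cbs, which makes the substrate of Cth and is named here after its counts were seen, was not tested and held counts in 1 control library and 1 other library, 9 and 7.

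Amino acid transporters reported as ATF4 targets had no called rise, with 6 of 8 tested lower and 2 not called, and a median log2 fold change of -0.82. Of all genes tested 22.3% were lower, and this list, like the others, was chosen with earlier results of these data known. Slc7a11, the cystine importer, was at 42.8, 43.1 and 62.1 CPM in the controls and 2.49, 3.34 and 2.87 CPM in the libraries labelled RhoA knockout. That is a control mean 17.0 times the other and a log2 fold change of -4.09 ± 0.19 (SE; edgeR adjusted p = 1.93e-08). It is uncertain, since 373 bases of its longest transcript match alpha-tubulin transcripts at 95% or more on the opposite strand, and the length correction gave -3.495. Tuba1b and Tuba1c, the most abundant of these, had log2 fold changes of 1.48 and 1.14, opposite to that of Slc7a11. Slc7a5, a carrier of large neutral amino acids, and Slc1a5, a glutamine carrier, had log2 fold changes of -1.65 ± 0.18 and -0.84 ± 0.12. With the length correction 1 transporter was called higher. When 1 library was left out, 4 to 7 transporters were called.

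Of 12 cytosolic aminoacyl-tRNA synthetases reported as ATF4 targets, 6 were lower, 2 higher and 4 not called (median -0.34). The shares of all genes tested were 22.3% lower and 21.0% higher. Aars, Sars and Wars, for alanine, serine and tryptophan, had log2 fold changes of -1.20 ± 0.12, -0.85 ± 0.13 and -0.57 ± 0.11 (adjusted p = 5.94e-06, 0.000227 and 0.00140). The length correction gave -0.77, -0.72 and -0.645, all still called. Aars shares 1326 of 9282 exon bases with Exosc6 on the same strand, which held 1 count in every library, and is uncertain. With library totals 3 of the 12 were lower. Over all settings 6 to 9 were called in either direction, so with library totals at least as many were higher as lower.

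Among 9 tested transcription factors and feedback genes of the response outside the 10 genes, 4 were lower, 5 not called and none was higher (median log2 fold change -1.13; with library totals, and without replicate 3 of both groups, 1 was called higher). By comparison, 22.3% of all genes tested were lower and 21.0% higher. Atf3, a stress-induced repressor, was at 61.7, 67.2 and 148.2 CPM in the controls and 13.2, 15.1 and 18.4 CPM in the libraries labelled RhoA knockout. As with Ddit3, control replicate 3 was highest, and the groups did not overlap (log2 fold change -2.57 ± 0.39, SE; edgeR adjusted p = 0.00273). Ppp1r15a encodes GADD34, which directs the dephosphorylation of eIF2, and Cebpg a dimer partner of ATF4. Their log2 fold changes were -1.13 ± 0.22 and -2.29 ± 0.44 (adjusted p = 0.00166 and 0.00124). Cebpg was at -2.88 without knockout replicate 2 and at -1.62 without replicate 3 of both groups, called in both. It shares 73 exon bases with Gm44836 on the same strand, whose count reached 17.1% of its own in 1 library, and is uncertain. Cebpb, named after its counts were seen, held at most 14 in a library and was not tested.

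Upstream, 13 genes of the eIF2 kinases, eIF2 and eIF2B were tested, with 1 higher, 4 lower and 8 not called (median log2 fold change -0.30). Beside these stand 21.0% higher and 22.3% lower of all genes tested. With library totals the split of the 13 turned to 3 higher and 1 lower, and with DESeq2 or the length correction 2 were lower. Eif2s1, the subunit of eIF2 that the kinases phosphorylate, was at 52.9, 55.0 and 48.5 CPM in the controls and 127.8, 121.6 and 126.9 CPM in the libraries labelled RhoA knockout, with no overlap (log2 fold change 1.27 ± 0.10, SE; edgeR adjusted p = 1.33e-06). Eif2s2, its partner subunit, had a log2 fold change of -0.63 ± 0.10, and Eif2b5, of the exchange factor eIF2B, of -0.77 ± 0.20 (adjusted p = 0.000352 and 0.00897). Eif2b5 was at -0.57 with library totals (adjusted p = 0.0782) and at -0.51 without replicate 3 of both groups (adjusted p = 0.114). Phosphorylation, which drives the response, is not measured by RNA counts.

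The ATF6 and XBP1 branches of the unfolded protein response, which share endoplasmic reticulum stress as a trigger, had 5 of 16 genes higher, 4 lower and 7 not called (median -0.14, or 0.03 with library totals and -0.40 with the length correction). For all genes tested the shares were 21.0% higher and 22.3% lower. Herpud1 and Pdia6, an adaptor of protein degradation and a folding enzyme, rose by 1.89 ± 0.12 and 1.15 ± 0.13 on the log2 scale (adjusted p = 2.36e-07 and 1.68e-05). Sel1l, a scaffold of the same degradation machinery as Herpud1, was lower (log2 fold change -1.83 ± 0.14, adjusted p = 1.09e-06). The length correction gave 1.63 for Herpud1, 1.11 for Pdia6 and -1.44 for Sel1l.

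**Figure D4:**
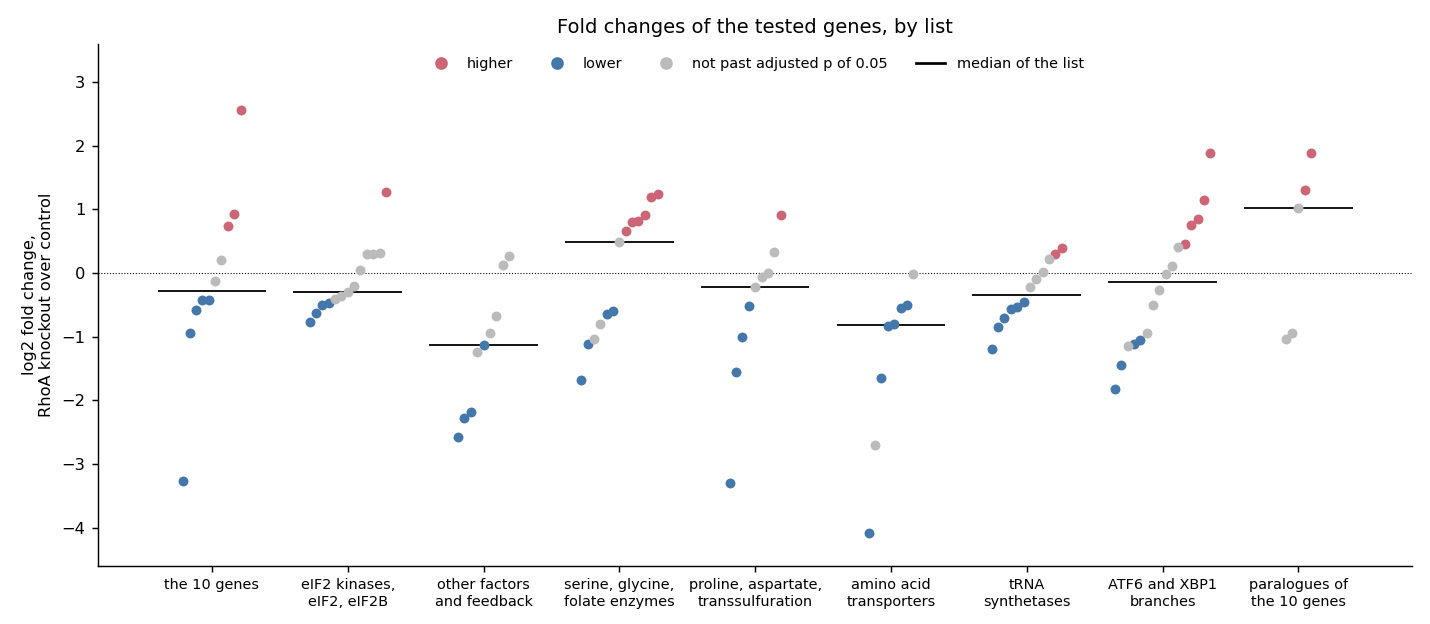
log2 fold change (libraries labelled RhoA knockout over control) of every tested gene, by list, with called genes in red (higher) and blue (lower), others in grey, and a line at the list's median. The 10 genes span -3.26 to 2.56, the serine, glycine and folate enzymes have a median of 0.49, and no transporter is called higher.

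Relatives of the 10 genes were looked at by the same fit. Of 7 paralogues 5 were tested, 2 were higher and 3 not called, where 21.0% of all genes tested were higher. Chac2, which encodes the constitutive relative of CHAC1, rose from 1.35 ± 0.169 to 3.33 ± 0.823 CPM (SD, n = 3; log2 fold change 1.31 ± 0.30, SE; edgeR adjusted p = 0.00386). Sesn1, a sestrin known as a p53 and FoxO target, rose from 1.40 ± 0.686 to 5.25 ± 0.601 CPM (1.89 ± 0.34; adjusted p = 0.000667), while Sesn2 was not called. Atf5 was not called, at a log2 fold change of -0.95 ± 0.38 (adjusted p = 0.0658, but 0.0221 with the length correction), shares 82 exon bases with Nup62 on the opposite strand, and held 53 to 112 counts. Trib1 and Mthfd2l, with mean levels of 0.219 and 0.747 CPM in the controls and 0.446 and 0.362 CPM in the others, had log2 fold changes of 1.01 ± 1.10 and -1.04 ± 0.75 and were not called. Single libraries set these values: Trib1 was at 0.42 without control replicate 2 and 1.61 without control replicate 3, and Mthfd2l at -0.34 without control replicate 1 and -1.68 without knockout replicate 2. Trib2 and Sesn3 held no counts.

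The promoter motif shown above was found in genes of both directions. Some genes of the lists had no promoter window and were not searched. Windows were given for 8 of 12 synthetases and 7 of 10 transporters, for example. Of the 10 genes and the lists, 16 tested genes held the open form, of which 5 were higher and 7 lower. Chac1, Herpud1, Pycr1, Tars and Trib3 were the higher ones, with Pycr1 and Tars close to the threshold (edgeR adjusted p = 0.0468 and 0.0481). Among all tested genes with a promoter window 22.1% were higher and 24.0% lower, and among the 249 with the open form 18.5% were higher and 26.5% lower. Chac1, with 1 spelled match, and Slc7a11, with 2, had the largest rise and the largest fall of these 16 genes.

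**Figure D5:**
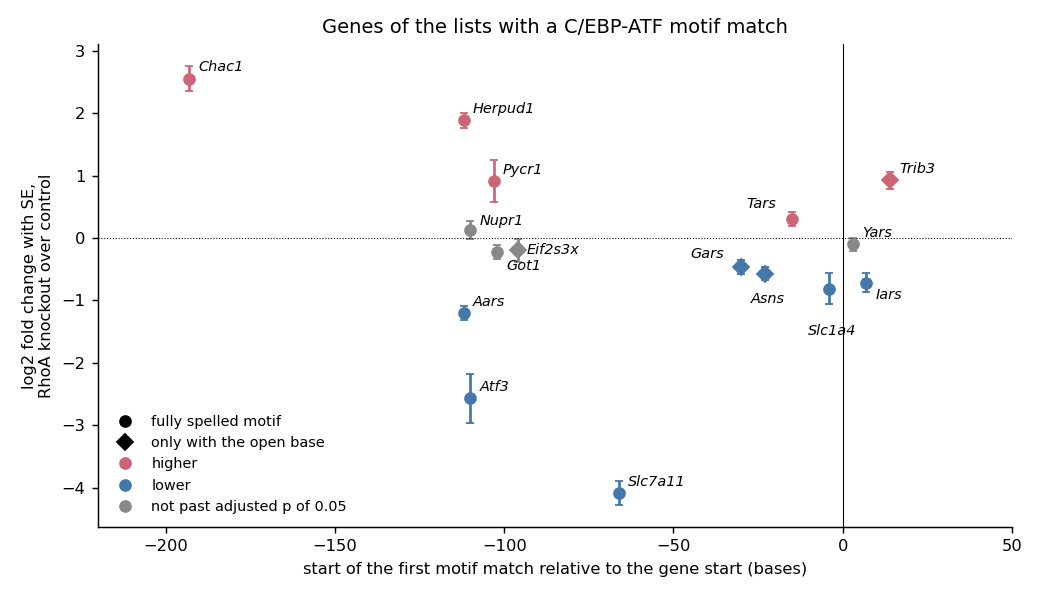
log2 fold change with SE (libraries labelled RhoA knockout over control) of the 16 tested genes with a match, against the start of the first match in bases from the RefSeq gene start; circles mark the spelled form and diamonds the open form only, red is called higher, blue called lower and grey not called. Chac1, at 193 bases before the start, is the highest, and Slc7a11, at 66 bases before it, the lowest.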

How the data were processed

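The authors deposited 1 table of whole-number counts per gene, without normalization, for 6 RNA-seq libraries made from total RNA extracted with Trizol (labels' protocols). The submitters' processing notes name GRCm38 as the build. Not given in the sources used here are the aligner, counting tool, annotation, strand setting and treatment of reads with several matches. All columns were matched to samples by name, and 0 were left out. Of 55487 IDs, 55227 had a GENCODE M21 symbol, and 1 listed gene (Mars1) was found by its RefSeq synonym Mars.

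Counts were fitted with edgeR 4.0.16 in R 4.3.3 (TMM, filterByExpr defaults, estimateDisp, robust glmQLFit, glmQLFTest) without a replicate block, with Benjamini-Hochberg adjustment at 0.05 over 12930 genes. Standard errors are the log2 fold change over the square root of F. The procedure was tested on simulated data. The members and lists were chosen with earlier results of these data known. Named genes are the 10 members, up to 3 called genes with the smallest p of each list (or the 2 most abundant), all paralogues and the 5 genes nearest to Atf4 by profile, and others are said to be picked later. Copies were sought with blastn 2.17.0 (longest transcript, at least 95% identity over 200 bp, at least 10% of the gene's count in a library).

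Alternatives were DESeq2 1.42.0 with its size factors or its own test, limma 3.58.1 voom, library totals, TMM without the 10 most abundant genes, other filters, counts divided by 4, an offset from a lowess curve on exon length, the replicate block, and libraries left out. Some genes of the lists are counted in them but not reported here by name.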

Additional observations from a re-analysis of the deposited data

How the results depend on the processing

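Of 180 values of the 10 genes under 18 alternatives, 170 kept their direction and their side of the threshold, 9 were no longer called and 1 reversed. Those no longer called were of Atf4, Ddit3 and Psat1, and the reversed one was Mthfd2 with library totals (0.045, not called in either case). The genes called higher were 3 under every alternative. Those called lower were 3 with library totals and 3 to 5 when 1 library was left out, with 3 without knockout replicate 3. Of the lists, 3 genes of eIF2 and its kinases were called with DESeq2, 3 with the replicate block and length correction together, and 3 to 5 when 1 library was left out, lowest without control replicate 1 or knockout replicate 2. Of the proline, aspartate and transsulfuration genes 3 were called with library totals, and 3 to 5 when 1 library was left out, lowest without control replicate 1, knockout replicate 1 or knockout replicate 3. Library totals gave 59.8% of all calls as higher, against 48.5% with TMM, and moved the median over all genes (log2) from -0.03 to 0.15. The causes were not tested. The replicate numbers did not pair the libraries: correlations of deviations from the group means were -0.006, 0.028 and 0.014 for same-numbered libraries, and not every library correlated best with its own number. With the replicate block 2634 genes were called higher and 2738 lower, against 2713 and 2879 without it, and of the 10 genes 3 and 5 as before. With counts divided by 4, the 10 genes kept 3 calls higher and 5 lower.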

Other observations

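The genes whose profile over the 6 libraries lay nearest to that of Atf4, by the root mean square difference of log2 CPM centred on each gene's mean, were Mcfd2, Eif3d, Swap70, Zfr and Lars, at 0.067 to 0.084 log2 units. Psat1 and Asns were the nearest of the other 9 stress response and serine synthesis genes, at 0.18 each, and Chac1 was the farthest, at 1.53. This difference includes the one between the groups. A log2 fold change near that of Atf4 in the nearest genes therefore follows from their choice, and their calls are no further evidence. Lars, the leucine tRNA synthetase, is on the synthetase list and had a log2 fold change of -0.53 ± 0.14 (edgeR adjusted p = 0.00803). It lost its call with library totals (-0.34, adjusted p = 0.166), without replicate 3 of both groups (-0.375, adjusted p = 0.0579) and with the replicate block and length correction together (-0.38, adjusted p = 0.0616). Swap70 had a log2 fold change of -0.41 (edgeR adjusted p = 0.0358), which lost its call under 12 of 18 alternatives, being -0.22 with library totals (adjusted p = 0.388) and -0.04 with the length correction (adjusted p = 0.848).

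Of 5 epithelial markers, Epcam, Krt8 and Krt18 held 39, 24 and 48 counts in control replicate 1 and 0 in every other library. Lymphocyte markers were at 0 in all libraries, and of 6 fibroblast markers only Pdgfrb had counts, at most 0.473 CPM summed. The part of these counts in the results was not tested. Without control replicate 1 the log2 fold changes of Chac1 and Cth were 2.405 and -3.296.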
